A study of Mus musculus with 2 samples.

Results

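Thbd, Procr, Tfpi, Plau, Plat and Vwf are genes by which vessels keep blood fluid, dissolve clots and hold platelets at a wound. EP300 peaks at these 6 genes were described in whole newborn lung. A peak was given to a gene when its summit lay within 100 kb of the start of any of its transcripts and no start of another protein-coding gene was closer, or when the summit fell inside the gene. By this rule 28 of 43972 peaks on the chromosomes, from the authors' optimal set described below, were given to these genes. The genes were 6 of 21938 annotated protein-coding genes. None of the 28 peaks came through the gene body alone. No measured value enters the rule, which names the genes, but the genes were chosen with earlier results of these data known.

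Chromatin was immunoprecipitated with an antibody to EP300 from lung of B6NCrl mice on postnatal day 0. The 2 sequenced libraries, called replicate 1 and replicate 2, formed 1 group with no treated, mutant or control arm, so no comparison between conditions was possible. They shared 1 donor and 1 biosample record, which leaves the possibility that differences between them are technical, and sex was not collected. A possible control experiment named in the labels was not analysed here. Peaks came from the authors' optimal set of 43988 peaks kept by the irreproducible discovery rate (IDR), a measure of how well peak ranks agree between replicates. A place in this set does not mean that a peak was matched in both libraries, and the matched share is given below. No read counts accompanied the lists, so depth is unknown. The signal given with each peak is the authors' own value, with no scaling stated, and it is used below to order and describe the peaks of 1 list at a time.

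EP300 is a histone acetyltransferase and transcriptional coactivator. It does not read DNA sequence itself but is brought to promoters and enhancers by transcription factors, and its ChIP-seq peaks are widely used to map enhancers. Thrombomodulin, the product of Thbd, binds thrombin on the vessel wall and turns it from a clotting enzyme into an activator of protein C. The endothelial protein C receptor, Procr, presents protein C to that complex. Tissue factor pathway inhibitor, Tfpi, blocks the start of clotting at tissue factor. Plat and Plau encode the tissue-type and urokinase-type plasminogen activators, the proteases that make plasmin and so dissolve fibrin. Von Willebrand factor, Vwf, is stored in endothelial cells and platelets, carries factor VIII and tethers platelets to injured vessel wall. Plat and Vwf release, and the display of thrombomodulin, are classical properties of endothelium, of which the lung holds a great deal.

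The bases around the summits are shown for the strongest peak of each gene and for every peak within 1 kb of a start, because these carry the promoter and the main distal signals. The second Plat peak is added, after its values were seen, for its 3 kinds of pattern match. Each line is the plus strand of the mouse reference assembly GRCm38.p6. It is cut to the 100 bp around the summit and shortened where an annotated untranslated exon began. At the Thbd start this left out 56 bp, among them the summit itself at position 148408183. The assembly was made from another substrain than the tissue. Capitals mark matches to the 17 transcription factor patterns spelled out further on, and lower case holds no match.
Thbd start, chr2:148408189-148408232: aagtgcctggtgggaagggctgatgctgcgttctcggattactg
Procr start, chr2:155750970-155751069: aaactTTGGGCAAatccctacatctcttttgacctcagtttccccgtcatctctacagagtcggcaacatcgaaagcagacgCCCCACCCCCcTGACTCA
Tfpi distal, chr2:84519664-84519763: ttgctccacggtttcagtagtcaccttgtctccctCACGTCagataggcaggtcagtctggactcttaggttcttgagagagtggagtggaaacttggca
Tfpi start, chr2:84476788-84476887: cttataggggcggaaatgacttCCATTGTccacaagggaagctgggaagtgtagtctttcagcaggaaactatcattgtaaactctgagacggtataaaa
Plau distal, chr14:20846484-20846583: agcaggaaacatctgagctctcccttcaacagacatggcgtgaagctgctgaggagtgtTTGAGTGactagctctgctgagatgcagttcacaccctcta
Plat distal, chr8:22753151-22753250: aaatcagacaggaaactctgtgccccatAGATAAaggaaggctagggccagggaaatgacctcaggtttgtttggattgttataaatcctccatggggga
Plat distal, second peak, chr8:22751184-22751283: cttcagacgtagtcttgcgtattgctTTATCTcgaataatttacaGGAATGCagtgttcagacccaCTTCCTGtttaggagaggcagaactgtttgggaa
Plat start, chr8:22757540-22757639: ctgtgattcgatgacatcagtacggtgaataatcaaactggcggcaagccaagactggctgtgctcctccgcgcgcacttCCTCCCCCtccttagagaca
Vwf distal, chr6:125535091-125535190: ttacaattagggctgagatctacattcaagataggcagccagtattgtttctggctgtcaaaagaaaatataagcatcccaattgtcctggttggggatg
Vwf intron, chr6:125553716-125553815: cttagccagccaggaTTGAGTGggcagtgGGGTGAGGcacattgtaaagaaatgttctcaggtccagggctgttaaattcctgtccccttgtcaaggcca
Vwf start, chr6:125552862-125552947: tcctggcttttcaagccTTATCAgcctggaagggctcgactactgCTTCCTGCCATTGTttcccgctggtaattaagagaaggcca

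All 6 genes held EP300 peaks, but unevenly: Tfpi and Vwf had 8 each, Thbd and Plat 4 each, Plau 3 and Procr 1. Over all protein-coding genes the mean was 1.91 and the median 0, and 48.7% had at least 1 peak. At least 3 peaks lay at 5 of the 6 genes, against 22.0% of all genes, and at least 4 lay at 4 of the 6, against 16.2%. Tfpi and Vwf reached 8, as did 6.34% of all genes. A peak within 1 kb of a start was found at 5 of the 6 genes, all but Plau, against 21.6% of all genes. These figures describe 6 genes that were chosen with earlier results of these data known. They carry no test, since 1 group of 2 libraries offers none. In whole tissue, fewer cells of a type and less EP300 per cell cannot be told apart. The nearest gene is also not a measured link between a peak and a gene.

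Large genes and lonely genes collect more peaks by the rule alone, so counts were divided by each gene's territory, the sequence in which a summit would be given to that gene. The 6 territories together held 6.32 peaks per 100 kb, against 2.16 over all protein-coding genes. With the strongest 43988 peaks of 1 library in place of the optimal set, the density at the 6 genes was 6.1 in replicate 1 and 6.55 in replicate 2, a mean of 6.32 ± 0.319 (SD, n = 2), against 2.16 over all genes in each library. The libraries thus lay close to each other in the total over the 6 genes, where opposite differences partly cancelled. Plau had 5 peaks in replicate 1 and 3 in replicate 2, Tfpi 7 and 9, Thbd 3 and 4, and Procr 0 and 1. The figure over all genes rests on the same number of peaks from each library and so could hardly differ. The genes differed widely among themselves. Thbd was the densest, with 4 peaks in 24.1 kb or 16.6 per 100 kb, a density that 2.96% of all genes reached. Plat followed at 7.89 per 100 kb in 50.7 kb, and Tfpi at 7.07 in 113 kb. Procr, with 5.04 in 19.9 kb, Vwf, with 4.78 in 167 kb, and Plau, with 4.43 in 67.7 kb, were reached by 18.6%, 19.6% and 21.0% of all genes. The order by density therefore differed from the order by count, and Vwf moved from the top to near the bottom.

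**Figure D1:**
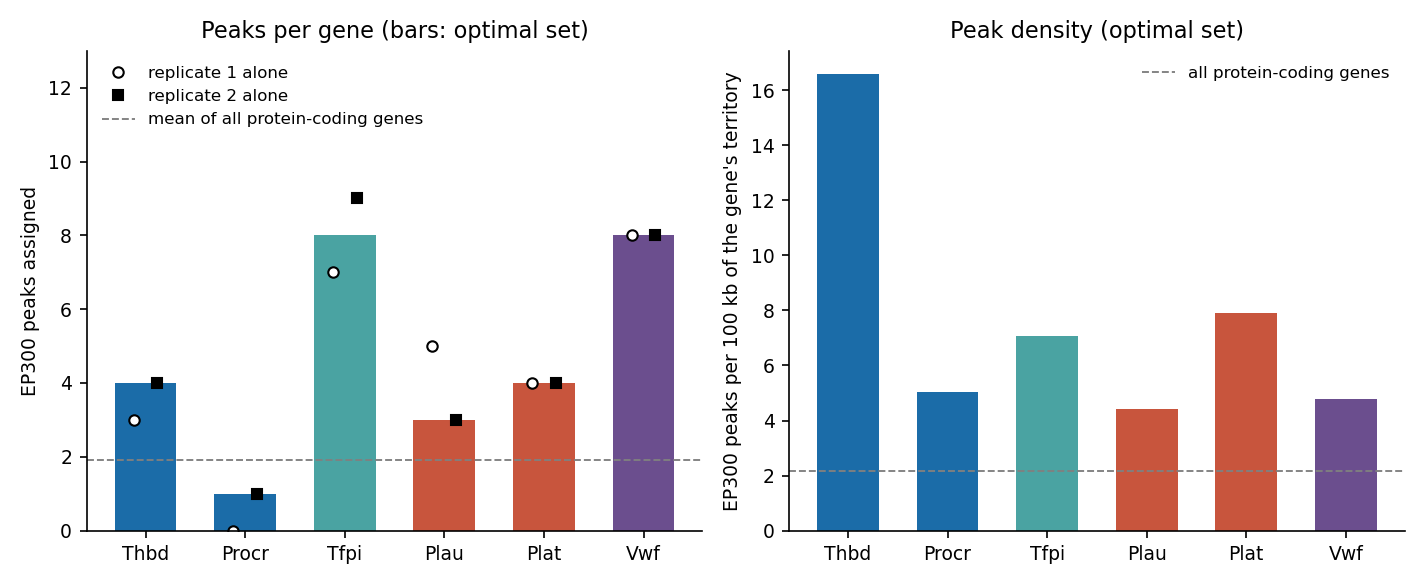
Left, EP300 peaks assigned to each gene in the optimal set (bars) and in the strongest peaks of replicate 1 (open circles) and replicate 2 (black squares), with the mean of 1.91 over all protein-coding genes dashed. Right, peaks per 100 kb of each gene's territory, with 2.16 over all genes dashed; Thbd stood at 16.6 and the other 5 genes between 4.43 and 7.89.

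Distances given for single peaks below run from the nearest start of a coding transcript. The anticoagulant receptor gene Thbd lies on the minus strand at chr2:148404466-148408188. Its strongest peak, at chr2:148407971-148408394, had its summit 5 bp inside the transcript, in an exon annotated as untranslated, with a signal of 105 in the optimal set. That peak measured 61.04 in replicate 1 and 42.47 in replicate 2, and it stood at rank 5741 and rank 6980 of the 300000 peaks of each. The start of thrombomodulin was therefore among the strong peaks of both libraries.

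Further Thbd peaks lay 11.8, 13.7 and 17.5 kb upstream, outside any annotated gene. The peak at 11.8 kb had a signal of 91.03 in the optimal set, 51.01 in replicate 1 and 37.87 in replicate 2. The peak at 13.7 kb had 75.05, with 35.2 in replicate 1 and 39.95 in replicate 2, and was the only Thbd peak of the 3 strongest that ranked better in replicate 2. The farthest peak was weak, at 35.2, and with rank 51256 it missed the strongest 43988 peaks of replicate 1. Thbd sits in a crowded stretch: 31 peaks lay within 100 kb of its start, of which 17 were nearest to Cd93, a receptor gene of endothelial and myeloid cells. The Thbd peak at 17.5 kb stood just inside the boundary set by the neighbour. A peak that overlaps it, 17.7 kb away with a signal of 21.5, stood just outside and was given to Cd93.

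Procr, on the plus strand at chr2:155751117-155755471, had the fewest peaks of the set. Its single peak, at chr2:155750808-155751231, had its summit 97 bp before the start and a signal of 32.62, rank 34993 in the optimal set. The values were 16.88 in replicate 1, at rank 44455, and 14.29 in replicate 2, at rank 40386. Procr therefore had 1 peak among the strongest 43988 of replicate 2 and 0 among those of replicate 1, where it lay just past the limit. Other genes claimed the remaining 4 of the 5 peaks within 100 kb, the closest of them 7.94 kb away with a signal of 73.7.

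Tfpi, on the minus strand at chr2:84432855-84476775, had the strongest peak of all 28. Its summit lay 42.9 kb upstream, in a peak 108 bp wide at chr2:84519611-84519718, where 424 bp was the width of 96.9% of all optimal peaks. The signal was 235.7, rank 624 and so within the strongest 1.42% of the optimal set. It reached 140.1 in replicate 1, at rank 510, and 99.5 in replicate 2, at rank 765. The next strongest peak of the 6 genes, at Plat, stood at rank 3931.

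Of the 8 Tfpi peaks, 6 stood together 42.1 to 52.7 kb upstream, all with summits inside Gm13710, an annotated long intergenic noncoding RNA gene. The second strongest, 48.5 kb upstream, had a signal of 85.65, with 38.29 in replicate 1 and 51.2 in replicate 2. The third, 52.4 kb upstream, had 82.85, with 37.47 in replicate 1 and 44.84 in replicate 2. Both ranked better in replicate 2, whereas the strongest peak ranked better in replicate 1. In this cluster 2 weaker peaks overlapped stronger ones, at 43.1 kb with a signal of 63.74 and at 52.7 kb with 15.13, so the 8 peaks were not 8 separate sites. The weakest was not matched in the list of replicate 1 and had 27.12 in replicate 2.

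At the Tfpi start a peak 63 bp upstream had a signal of 54.09, with 19.17 in replicate 1 and 31.45 in replicate 2. It was weaker than 5 of the other 7 Tfpi peaks. The remaining peak, in an intron 13.8 kb downstream of the nearest coding start and 1.87 kb from the start of another annotated transcript, had 37.75 in replicate 1 but 7.267 in replicate 2, where it stood at rank 129466. Only 2 further peaks lay within 100 kb of the Tfpi starts, and both were nearest to Calcrl.

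The fibrinolytic genes differed from each other in where their peaks lay. Plat, on the plus strand at chr8:22757727-22782844, had its strongest peak 4.55 kb upstream at chr8:22752989-22753412, with a signal of 126. That peak had 75.38 in replicate 1, at rank 3495, and 51.63 in replicate 2, at rank 4647, and it was the second strongest of the 28. A peak 6.51 kb upstream had 71.48, with 42.36 in replicate 1 and 27.1 in replicate 2. An intron peak 23.0 kb downstream of the start had 42.76, with 24.5 in replicate 1 and 15.42 in replicate 2.

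The Plat peak at the start, 157 bp upstream, was the weakest of the 4, at 38.75. It had 20.5 in replicate 1, at rank 34631, and no summit within 100 bp anywhere in the list of replicate 2. Within 100 bp, the upstream pair at Plat was thus matched in both libraries and the start peak in replicate 1 only. Each library alone nevertheless had 4 Plat peaks among its strongest. Whether replicate 2 had a peak near the Plat start with its summit more than 100 bp away was not tested.

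Plau, on the plus strand at chr14:20836660-20843385, had no peak within 1 kb of a start. Its strongest, 9.87 kb downstream of the start and past the end of the gene, had a signal of 65.85, with 28.89 in replicate 1 and 34.49 in replicate 2. The second lay 29.0 kb downstream and had 34.5, with 21.19 in replicate 1 and 14.33 in replicate 2. The third lay 6.75 kb upstream and had 33.09, with 20.09 in replicate 1 and 12.63 in replicate 2, where its rank of 48198 put it past the strongest 43988. All 3 were thus outside the gene. In single libraries Plau had 5 peaks in replicate 1 and 3 in replicate 2, the widest gap between the libraries among the 6 genes besides that of Tfpi, with 7 and 9. The closest peak of another gene, 31.1 kb away with a signal of 81.9, was nearest to Camk2g, which claimed 5 of the 10 peaks within 100 kb.

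Vwf, a long gene on the plus strand at chr6:125546774-125686679, was the only one of the 6 with most of its peaks inside it, 6 of 8. Its coding transcripts start at position 125546774 and, further in, at 125552948 and 125552963, so upstream peaks are placed from the outer start and peaks in the gene from the inner ones. The strongest nevertheless lay 11.6 kb upstream of the outer start, at chr6:125534929-125535352, with a signal of 100.3, or 52.98 in replicate 1 and 45.67 in replicate 2. An intron peak 803 bp past the inner starts had 90.6, with 62.18 in replicate 1 and 28.99 in replicate 2. A peak 39.2 kb past the inner starts, in an exon annotated as untranslated in a shorter transcript, had 90.26, with 70.24 in replicate 1 and 26.75 in replicate 2. The libraries ranked both differently: the intron peak stood at 5533 in replicate 1 and 14054 in replicate 2, and the other at 4178 in replicate 1 and 15982 in replicate 2.

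Another upstream Vwf peak, 17.0 kb before the outer start, had 85.27. An intron peak 42.0 kb past the inner starts had 76.18. At the inner starts, a peak 36 bp upstream of the nearer one had 44.99, with 26.81 in replicate 1 and 13.48 in replicate 2, where its rank of 43867 was just inside the strongest 43988. The 2 weakest were intron peaks 111 kb past the inner starts, with 36.52, and 43.8 kb past them, with 29.82. Both were found in replicate 1, and in replicate 2 the one stood at rank 113706 and the other was not matched. Of 18 peaks within 100 kb of the Vwf starts, the other 10 were all nearest to Cd9.

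**Figure D2:**
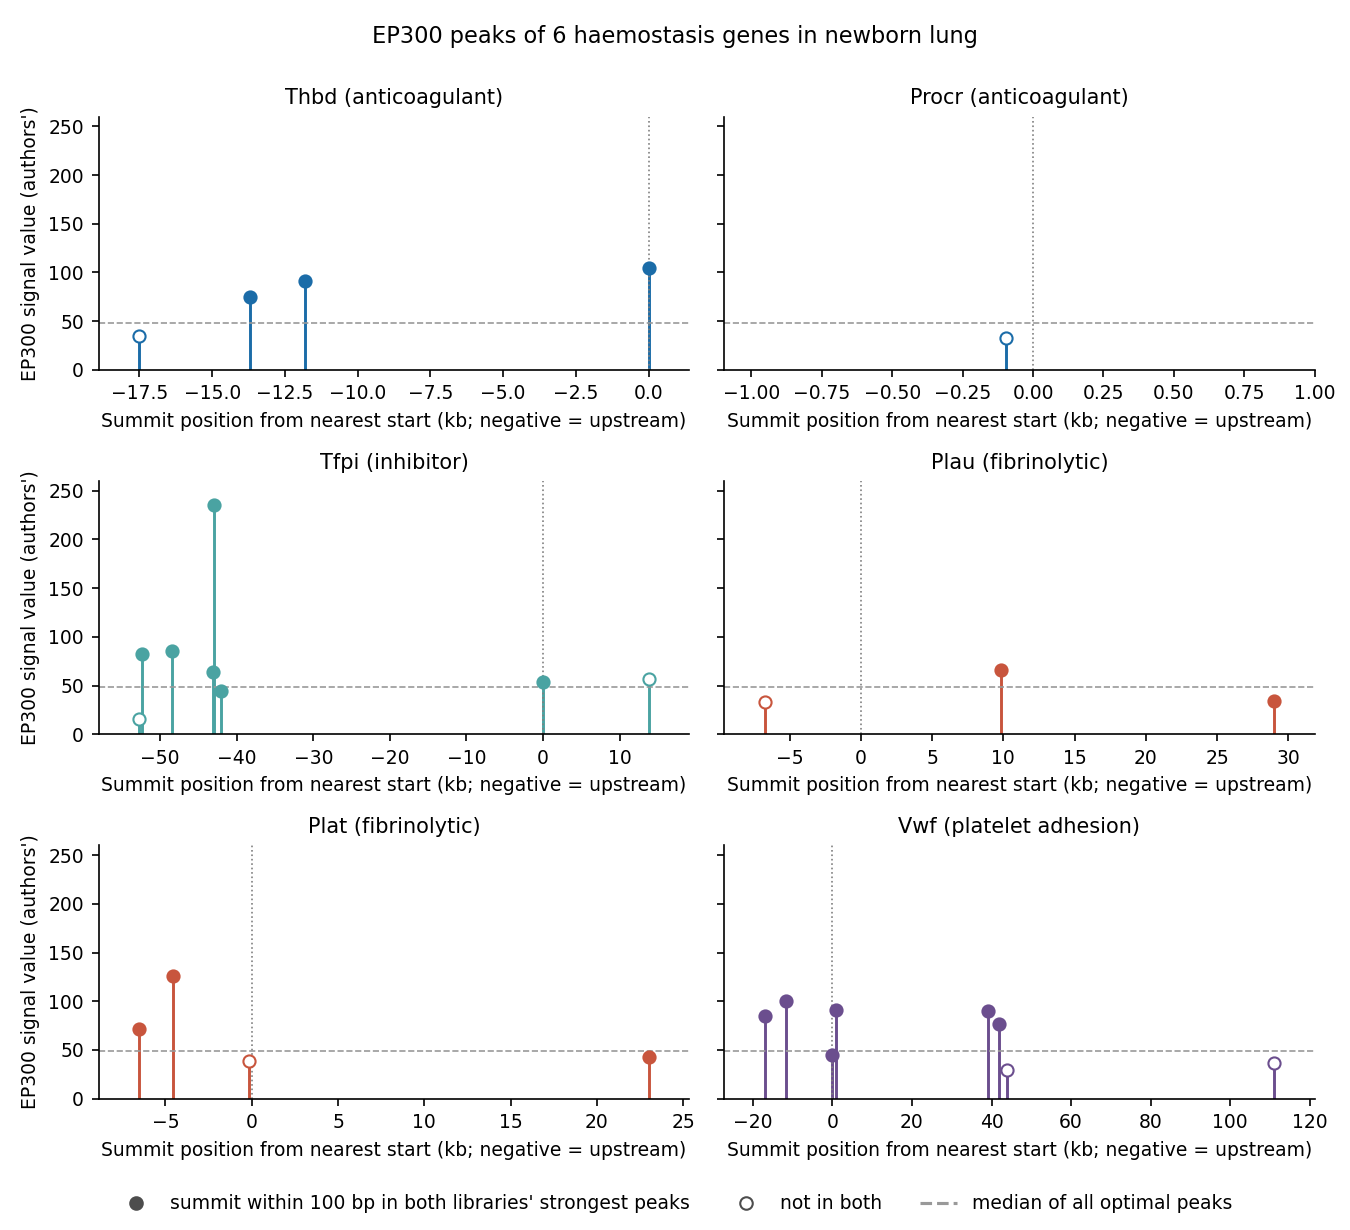
Summit position from the nearest start of a coding transcript (kb, negative upstream) against the signal in the optimal set for all 28 peaks, 1 panel a gene. Filled points were matched within 100 bp in the strongest peaks of both libraries and open points were not; the dashed line is the median of 48.5 over all optimal peaks. The Tfpi cluster 42.1 to 52.7 kb upstream holds the strongest peak, at 235.7, and Plau has no peak at its start.

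Set side by side, the genes that restrain clotting had more peaks than the genes that dissolve clots when peaks up to 100 kb from a start were counted, and fewer when the limit was 10 kb. Within 100 kb, Thbd, Procr and Tfpi had 13 peaks, or 8.27 per 100 kb, with a median signal of 63.7 and a range of 15.13 to 235.7. Plau and Plat had 7 peaks, or 5.91 per 100 kb, with a median of 42.8 and a range of 33.09 to 126, so the signals overlapped. Of the 13 peaks, 6 stood in the Tfpi cluster 42.1 to 52.7 kb upstream, so the lead rested largely on 1 gene. With overlapping peaks merged, Thbd, Procr and Tfpi had 11 peaks within 100 kb, and Plau and Plat had 7. Within 10 kb or inside the gene, Thbd, Procr and Tfpi had 4 peaks, and Plau and Plat had 6. In single libraries the counts were 10 in replicate 1 and 14 in replicate 2 for Thbd, Procr and Tfpi, and 9 and 7 for Plau and Plat. The difference within 100 kb was 1 peak in replicate 1, and it covers 3 genes against 2 and territories of 157 kb against 118 kb. Per 100 kb and per gene, Plau and Plat therefore stood higher in replicate 1 and lower in replicate 2. Vwf stood apart from both with a median of 80.7 and the lowest density of these groups, 4.78 per 100 kb. Within the restraining genes, Thbd and Procr had 11.4 peaks per 100 kb and Tfpi 7.07, so the inhibitor with most peaks was not the densest.

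The distance pattern also varied with the gene. Measured from the nearest start of any transcript, 14 of the 28 peaks lay over 10 kb away, against 58.7% of all optimal peaks. They were 9 of 13 at Thbd, Procr and Tfpi, 3 of 8 at Vwf and 2 of 7 at Plau and Plat. The median distance was 10.6 kb for the set and 15.6 kb for all optimal peaks. From coding starts alone, 18 of the 28 lay over 10 kb away, with 6 of them at Vwf. The 6 peaks within 1 kb of a start had a median signal of 49.5, and the other 22 had 68.7. Over all optimal peaks the same figures were 45.2 near starts and 49.2 elsewhere. Thbd went against this order, since its strongest peak was at the start, while at Tfpi, Plat and Vwf the strongest peak was distal.

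The 28 peaks had a median signal of 64.8, against 48.5 over all optimal peaks, and 17 of the 28 ranked above that overall median. In single libraries the medians were 35.2 at the 6 genes and 28.4 over all peaks in replicate 1, and 27.1 and 21.8 in replicate 2. The median share of G and C in the central 100 bp was 47.0% in the set and 47.0% over all optimal peaks. Peaks were called in a pooled list of 300000 as well, and 25.2% of its 111 peaks at the 6 genes were in the optimal set, against 15.9% of the 264222 assigned to all genes.

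A summit within 100 bp among the strongest 43988 peaks of both libraries was found for 20 of the 28 peaks, or 71.4%, against 63.0% of all optimal peaks. The conservative IDR set, the smaller of the authors' sets, held 25 of the 28, or 89.3%, against 80.1% of all optimal peaks. Both shares are near the background and nothing is read from them. The 3 peaks outside the conservative set were the Tfpi intron peak and the 2 weakest Vwf peaks. Of the 6 peaks at starts, those of Thbd, Tfpi and Vwf were matched in both libraries, with 2 such peaks at Vwf, while those of Procr and Plat were not.

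In the full lists 25 of the 28 peaks had a match in each library. The log2 of the replicate 2 value over the replicate 1 value had a median of -0.52 for these peaks, with a range of -2.38 to 0.71, and of -0.40 over 37767 optimal peaks, of which the central 90% ran from -1.43 to 0.62. The 2 libraries thus differed in scale for most peaks, and no scaling was stated. The Tfpi intron peak and the Vwf peak at 111 kb lay below that central range, and the Tfpi start peak, at 0.71, lay above it.

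**Figure D3:**
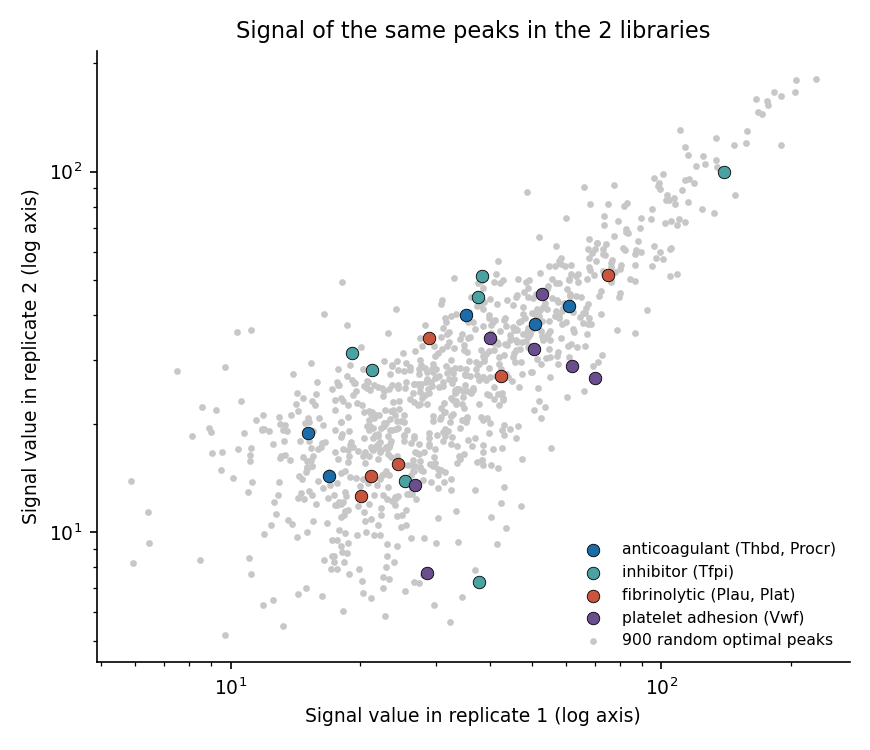
Signal in replicate 1 (horizontal) against replicate 2 (vertical), both on log axes, for the 25 peaks of the 6 genes matched in both full lists (coloured by role) and for 900 optimal peaks as a backdrop (grey). The strongest Tfpi peak sits at 140.1 and 99.5, and the Tfpi intron peak and the Vwf peak at 111 kb sit lowest, at 7.267 and 7.7 in replicate 2.

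Sequence patterns were then searched on both strands in the 100 bp around each summit. Any of the 17 patterns matched in 19 of the 28 peaks, or 67.9%, against 62.0% of all optimal peaks, a share near the background. No pattern contains another. A match is a description of letters and says nothing of a bound factor, and the absence of one says only that those letters are not in the window.

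The pattern AGATAA or TGATAA, of the GATA factor family used in blood and vessel cells, was the most frequent at these genes. It matched 8 of the 28 peaks, or 28.6%, against 13.2% of all optimal peaks. Of these, 4 were distal Tfpi peaks, 2 were the upstream pair at Plat, and 2 were Vwf peaks, among them the start peak shown above. Neither Thbd, Procr nor Plau had one. In the printed Plat sequences the match is AGATAA, 19 bp left of the summit, in the strongest peak and TTATCT, its reverse complement, 21 bp left of it in the second.

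SOX (ACAATGG or ACAATAG) matched 3 peaks, or 10.7%, against 3.38% of all. Those were the start peaks of Tfpi and Vwf, where the same letters CCATTGT stand 24 bp left and 6 bp right of the summit, and 1 distal Tfpi peak. ETS (CAGGAAG or CCGGAAG), a family with many members in endothelium, matched 4 peaks, or 14.3%, against 12.3% of all, 2 at Plat and 2 at Vwf. In the Vwf start sequence an ETS match and the SOX match are adjoining, which gives the unbroken run of capitals there.

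TEAD (ACATTCC or GCATTCC) matched 3 peaks, or 10.7%, against 8.23%, with 1 each at Tfpi, Plau and Plat. NKX2 (CACTTGA or CACTCAA), the pattern of the family of the lung epithelial factor Nkx2-1, matched 3 peaks, or 10.7%, against 5.15%. Of these, 2 were at Plau and 1 was the Vwf intron peak 803 bp past a start. Plau had only 3 peaks in all, and 1 of its 2 matches was in the weak peak at 29.0 kb, with a signal of 34.5. Nothing is read from so few matches.

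KLF (CCNCNCCC) matched 4 peaks, or 14.3%, against 13.1%, 1 each at Procr, Tfpi, Plat and Vwf. CEBP (TTGCNNAA) matched 2 peaks, or 7.14%, against 8.7%, and HIF (TACGTG or GACGTG) 2 peaks, or 7.14%, against 3.03%, of which 1 was the strongest Tfpi peak. AP-1 (TGACTCA) matched the Procr peak alone, against 5.94% of all, and FOX (TGTTTAC) 1 Vwf peak, against 5.35%. The single Procr peak held AP-1, KLF and CEBP matches, which with the second Plat peak and the Vwf start peak made it 1 of 3 peaks with 3 patterns. None of the 4 Thbd peaks held any pattern.

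For 7 patterns no peak of the set had a match. These were the glucocorticoid response element (GNACA and TGTNC 3 bases apart), against 2.17% of all optimal peaks, CREB (TGACGTCA), against 0.403%, and MEF2 (CTAAAAATA, CTATTTTTA, CTATAAATA or CTATTTATA), against 1.21%. The others were STAT (TTCCNNGAA), against 4.09%, NFI (TTGGC and GCCAA 5 bases apart), against 0.0409%, NF-kappaB (GGGNNTTCC), against 1.97%, and the retinoic acid receptor (GNTCA repeated 6 bases apart), against 0.264%. Each of these was rare over all optimal peaks as well, STAT being the most frequent.

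**Figure D4:**
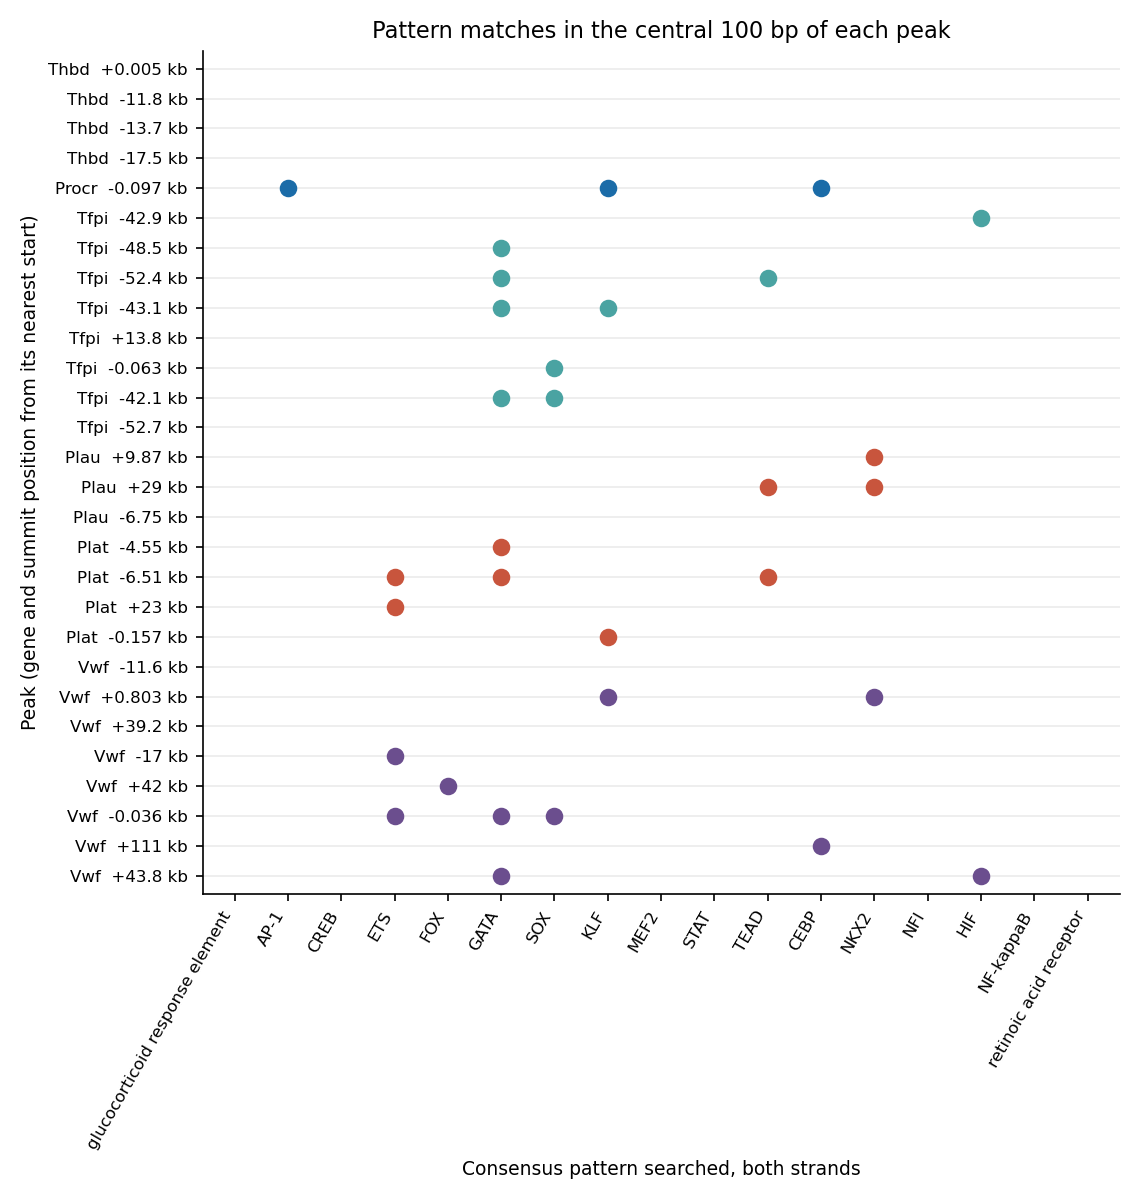
Pattern matches (dots) in the central 100 bp of each of the 28 peaks, 1 row a peak with its summit position from the nearest start and 1 column a pattern. GATA has most matches, in 8 peaks of Tfpi, Plat and Vwf, and the 4 rows of Thbd hold none.

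The other genes of haemostasis were described with a list of 50. Of these, 29 had a peak and 13 had one within 1 kb of a start, shares near the 48.7% and 21.6% of all genes. The mean was 2.58 peaks a gene with a median of 1, against 4.67 and 4 at the 6 genes above. No test between roles was made. All 5 other fibrinolytic genes and all 4 receptors for clotting proteases had peaks, with 30 peaks and a median of 6 a gene at the first, and 20 peaks and a median of 4.5 at the receptors. Clotting factors, which the liver mostly makes, had peaks at 6 of 16 genes with a mean of 1.12 and a median of 0. Coagulation inhibitors had them at 3 of 6 with a mean of 1, fibrinolysis inhibitors at 3 of 6, other anticoagulants at 3 of 5 with a median of 1 and other platelet adhesion genes at 5 of 8. For these roles and the clotting factors the share with a peak was near that of all genes. In this wider list the fibrinolytic genes thus had more peaks a gene, by the median, than the anticoagulants and coagulation inhibitors. By the mean the gap to the anticoagulants was small, with 6 peaks a gene against 5.

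The 6 listed genes with most peaks had 7 to 15 each. Entpd1, an enzyme that removes the platelet agonist ADP, had 15, with 16 in each single library, and a strongest signal of 194.2. Anxa2, a cell surface docking site for Plat and plasminogen, had 12, with 13 in each library. F2rl2, a thrombin receptor, had 10 in the optimal set, against 7 in each library. Anxa5, which covers the clot-promoting phospholipid, had 9, Thbs1, a matrix protein that binds plasmin, had 8, and Itgb3, the integrin subunit shared by platelets and vessel cells, had 7 with the highest single signal of these, 284.2. The partners of Thbd and Procr in the protein C pathway, Proc and Pros1, had 0.

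**Figure D5:**
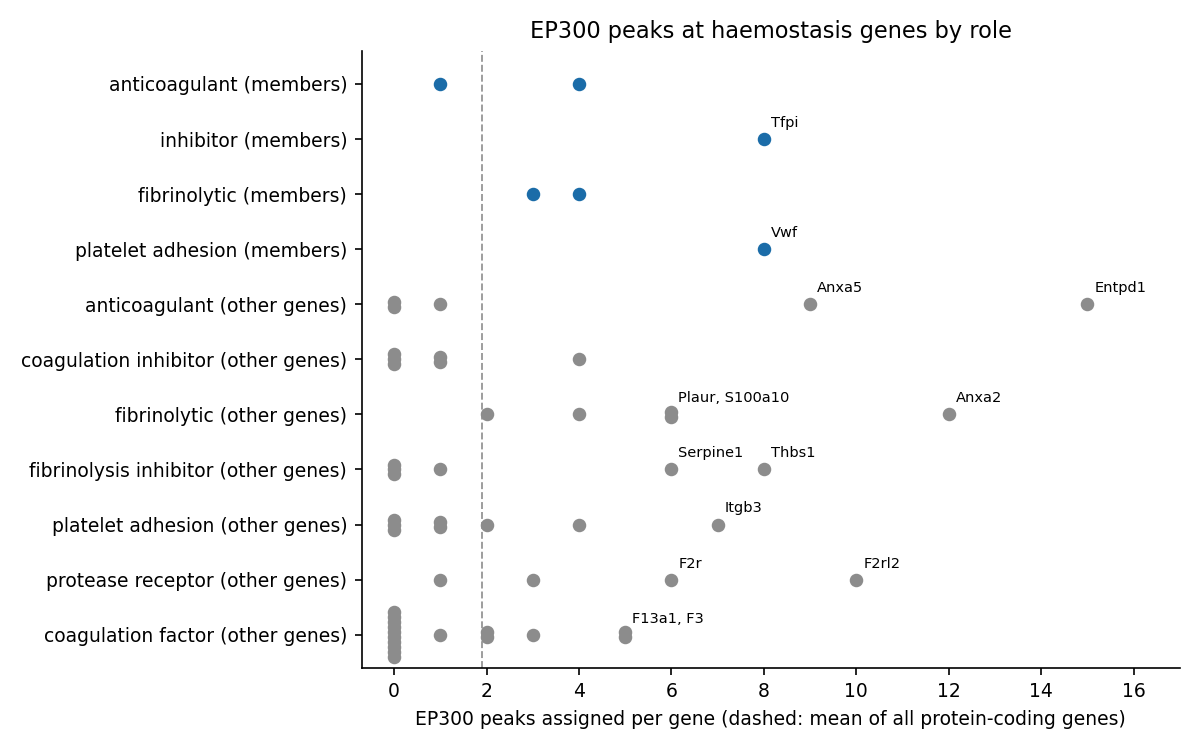
EP300 peaks per gene for the 6 genes of the set (blue, top rows) and 50 other haemostasis genes by role (grey). The dashed line is the mean of 1.91 over all protein-coding genes; Entpd1 is highest at 15, and most clotting factor genes are at 0.

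Marker genes were counted by the same rule, by which 48.7% of all protein-coding genes had a peak. A peak near a gene is not its expression. Endothelial markers had peaks at 7 of 7 genes, 85 in all and 1 to 16 a gene, and lung epithelial markers at 8 of 8, 72 in all. Megakaryocyte and platelet markers bear on Vwf, since platelets hold it too. They had peaks at 1 of 5, with 2 peaks at Itga2b and 0 at Pf4, Ppbp, Gp6 and Gp9. Itga2b had 1 peak in replicate 1 alone and 0 in replicate 2 alone, and a strongest signal of 33.38 in the optimal set. Hepatocyte markers had peaks at 1 of 6, with 3 at Apob, and neuron markers at 3 of 6, with 14. The share of each cell type in the peaks of the 6 genes was not tested.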

How the data were processed

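EP300 ChIP-seq of newborn lung gave 2 libraries. Per the labels' notes, reads were aligned by the authors to mm10, and peak lists of each library and of both pooled gave conservative (42473) and optimal (43988) IDR sets. The aligner and peak caller are not given in the sources used here. Signal values deposited by the authors for each peak have no stated scaling. The full lists held 300000 peaks each, and 16 optimal peaks off the 21 chromosomes were left out.

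Here peaks were assigned with the starts of all transcripts of protein-coding genes in GENCODE vM21, with Python 3.11.15, numpy 2.4.6 and pandas 2.3.3. Peak ends fell within the GRCm38.p6 chromosome lengths. The assignment, territory and pattern steps were tested on simulated data, and the partner step was not. For 1 library alone, its strongest 43988 peaks were used. The members and lists were chosen with earlier results of these data known. All 6 members are named, the 3 strongest peaks of each and every peak within 1 kb of a start are described, and of the 50 other genes the 6 with most peaks are named. Genes and peaks named beside these were chosen after their values were seen. Alternatives were the conservative set, stronger peaks, single libraries, other distances, starts, windows and partner rules, and, chosen after seeing the data, the starts of basic coding transcripts. Of the marker lists, 1 gene is not reported here.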

Additional observations from a re-analysis of the deposited data

How the results depend on the processing

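The 28 peaks became 17 when only optimal peaks above the median signal were used, and 16 with starts within 10 kb. Above the median signal, Thbd, Procr and Tfpi held 9, Plau and Plat 3 and Vwf 5. Within 10 kb, Thbd, Procr and Tfpi held 4 and Plau and Plat 6, which turned the order of these groups round. The limit took away 9 peaks of Thbd and Tfpi, and at Plau and Plat only the Plau peak at 29.0 kb. Why the peaks lay at these distances was not tested. At that limit the median signal was 55.6 and the density 5.38 per 100 kb. In the conservative set the median was 71.5 and the density 5.65. Leaving out 1 library moved the median to between 27.1 and 35.2, on that library's own scale, and gave 27 to 29 peaks in all. With all peaks of each library, 89.3% of the peaks had a partner in both, against 85.9% of all optimal peaks. Patterns matched 12 peaks in the central 50 bp, or 42.9%, against 37.6% of all optimal peaks. GATA then matched 4, or 14.3%, against 6.74% of all. ETS and KLF matched 2 each, or 7.14%, against 6.59% and 6.19%, and AP-1 0, against 2.88%. In the central 200 bp GATA matched 10, or 35.7%, against 22.7% of all. KLF matched 8 there, or 28.6%, against 24.4%, and AP-1 2, or 7.14%, against 10.1%. Procr had 0 peaks and Plau 5 in replicate 1 alone. The 50 kb limit, the start-only rule, 1 start a gene, basic coding starts and merging of overlapping peaks kept these counts within 1.5 times. The share with a partner in both libraries could not be recomputed without a library. No paired analysis was possible because there was 1 group. With no read counts, what depth limits could not be stated.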
